A study of Mus musculus with 2 samples.

Results

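AMP-activated protein kinase (AMPK) is an energy sensor built from a catalytic, a beta and a gamma subunit, and liver kinase B1 (LKB1) is the upstream kinase that switches it on. The 8 genes described here encode every subunit of AMPK in the mouse and LKB1. They were taken by gene symbol, 8 of 55536 genes in the deposited tables, with their 50 annotated transcripts. Prkaa1 and Prkaa2 encode the catalytic subunits alpha 1 and alpha 2, Prkab1 and Prkab2 the beta subunits, Prkag1, Prkag2 and Prkag3 the gamma subunits, and Stk11 encodes LKB1.

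AMP and ADP bind the gamma subunit when ATP is used faster than it is made, and this favours phosphorylation of a threonine in the activation loop of the catalytic subunit by LKB1. The beta subunit holds the complex together, binds glycogen and carries an N-terminal myristoyl group. In skeletal muscle, AMPK is known for promoting glucose uptake and fat oxidation during contraction, and the gamma 3 subunit is known as one found mainly in fast glycolytic muscle.

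Libraries of total RNA came from gastrocnemius, a calf muscle, of female B6Cast F1 mice, which the labels describe as 18 to 20 months old although the field for age is left unfilled. There was 1 group of 2 libraries, called replicate 2 and replicate 1, each from 300 ng of RNA with ERCC spike-ins, which are synthetic RNAs added to the sample. The labels give different tissue samples for the replicates and 1 donor identifier, that of the strain, so it is not certain that 2 separate animals were used, and the spread given below may be partly technical. No treatment, genotype or younger age was compared, and with 2 libraries no test of a difference was possible.

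The depth was 43918877 expected counts in replicate 2 and 38819119 in replicate 1, and 11287 and 11546 genes reached 1 TPM (a relative level scaled for transcript length) in these libraries. The tissue label was checked for fast skeletal muscle only, since fibre genes cannot tell gastrocnemius from other fast muscles. A set of 7 fast fibre genes, among them Tnnt3, Myh4 and Mylpf, summed to 76358 TPM in replicate 2 and 84635 TPM in replicate 1. The libraries differed in slow fibre genes, since Myh7, Tnnt1, Tnnc1, Tnni1, Myl2, Myl3 and Atp2a2 summed to 2152 TPM in replicate 2 and 399 TPM in replicate 1, and all 7 were at least 2-fold higher in replicate 2. Markers of 7 other cell types were present in both libraries, with none of the 42 genes at 0 in both. The summed levels in replicate 2 and replicate 1 were 438 and 428 TPM for fibro-adipogenic cells, 48.2 and 66.7 TPM for endothelium, and 126 and 112 TPM for adipocytes. For macrophages they were 24.8 and 30.1 TPM, for Schwann cells 38.4 and 46.7 TPM, for satellite cells 31.1 and 25.2 TPM, and for mural and smooth muscle cells 178 and 179 TPM. A sum can hide its members. In the fibro-adipogenic list the collagen genes Col1a1 and Col3a1 were at least 2-fold higher in replicate 2. They had 28.31 and 37.31 TPM there, against 9.69 and 12.50 TPM in replicate 1. The only other marker 2-fold apart was the macrophage gene Cd68, at 0.54 TPM in replicate 2 and 1.52 TPM in replicate 1, from 20 and 49 counts. Of 6 endothelial genes, 5 were lower in replicate 2. The satellite cell sum was mostly Sdc4, at 27.42 TPM in replicate 2 and 20.47 TPM in replicate 1. Of the 5 satellite cell genes tested, 3 were lower in replicate 2, among them Pax7 at 0.49 TPM in replicate 2 and 0.94 TPM in replicate 1. What share of any level below came from these cells was not tested, and in whole muscle fewer cells of a type and less RNA per cell cannot be told apart.

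All 8 genes were expressed above 1 TPM in both libraries, by both RSEM and kallisto, the 2 programs whose output was deposited. In each subunit class 1 gene held most of the RNA: Prkaa2 among the catalytic subunits, Prkab2 among the beta subunits and, less completely, Prkag3 among the gamma subunits. By RSEM, Prkab2 was highest at 89.5 ± 7.42 TPM, followed by Prkaa2 at 65.6 ± 2.28 TPM and Stk11 at 64.8 ± 1.53 TPM (SD, n = 2 each). Prkag3 averaged 33.6 ± 1.11 TPM and Prkag1 22.4 ± 0.884 TPM (SD, n = 2 each). The lowest were Prkab1 at 4.88 ± 0.346 TPM, Prkaa1 at 4.65 ± 0.283 TPM and Prkag2 at 3.94 ± 0.537 TPM (SD, n = 2 each).

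In that order, 2 pairs of neighbours did not differ beyond their spread, Prkaa2 with Stk11 and Prkab1 with Prkaa1, since the values of their libraries overlapped. Among the 10015 protein-coding genes at 1 TPM or more in both libraries, whose median was 8.55 TPM, Prkab2 ranked 619th, Prkaa2 830th and Stk11 843rd. Prkag3 ranked 1632nd and Prkag1 2382nd, while Prkab1, Prkaa1 and Prkag2 ranked 6700th, 6840th and 7299th and so fell below that median. Over all transcripts kallisto placed Prkag2 above both Prkab1 and Prkaa1 in both libraries, and Prkag3 above Stk11 in replicate 1. Over protein-coding transcripts alone both orders turned. Prkag2 then had 3.87 TPM in replicate 2 and 3.25 TPM in replicate 1, Prkab1 4.54 and 4.99 TPM, and Prkaa1 5.35 and 6.09 TPM. In replicate 1 Prkag3 then had 23.1 TPM, or 44.2 TPM with the identical copy described below, against 50.4 TPM for Stk11.

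**Figure D1:**
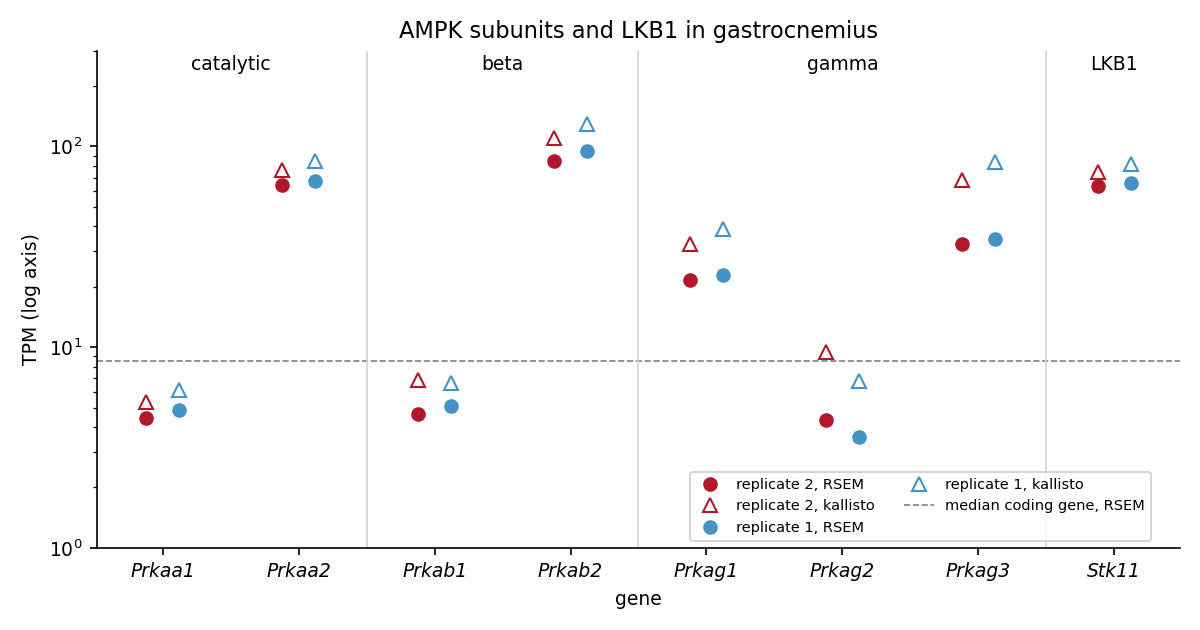
TPM on a log axis for the 8 genes, grouped by subunit class. Each library is 1 symbol, filled circles for RSEM and open triangles for kallisto, red for replicate 2 and blue for replicate 1, and the dashed line is the median protein-coding gene. Prkaa2, Prkab2, Prkag1, Prkag3 and Stk11 lie above that line by both programs, and kallisto is furthest from RSEM for Prkag2 and Prkag3.

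The catalytic class was nearly all Prkaa2. Its gene lies on the minus strand at chr4:105029874-105109890 of mm10 (ENSMUSG00000028518.8) and has a single annotated transcript, of 7969 bases and 9 exons. Prkaa2 had 64.03 TPM in replicate 2, from 16517 expected counts, and 67.26 TPM in replicate 1, from 15329. Prkaa1, on the plus strand at chr15:5143861-5181899 (ENSMUSG00000050697.9), had 4.45 TPM in replicate 2, from 664 counts, and 4.85 TPM in replicate 1, from 640. By kallisto Prkaa2 had 76.3 TPM in replicate 2 and 84.8 TPM in replicate 1, and Prkaa1 5.35 and 6.09 TPM. Prkaa2 was therefore 14.4 times as high as Prkaa1 in replicate 2 and 13.9 times in replicate 1, and by kallisto 14.3 and 13.9 times. It held 93.5% of the catalytic TPM in replicate 2 and 93.3% in replicate 1, which is a share of RNA and not of protein.

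The codons of the activation loop are shown because they encode the threonine that LKB1 phosphorylates in both catalytic subunits. Each stretch of 60 coding bases was read from GENCODE M21 transcripts, 5′ to 3′, with the codon of the phosphorylated threonine in capitals. That threonine is residue 172 of the Prkaa2-201 protein and residue 183 of the longer Prkaa1-201 protein, at chr4:105049351-105049410 on the minus strand and chr15:5169940-5169999 on the plus strand.
Prkaa2-201: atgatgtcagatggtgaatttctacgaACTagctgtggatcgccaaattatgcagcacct
Prkaa1-201: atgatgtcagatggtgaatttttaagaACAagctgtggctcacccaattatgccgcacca
The stretches differ at 8 of 60 bases and at 0 of the 20 residues they encode. Over the whole coding sequences, 76.2% of 546 aligned residues were identical. The genes share only 5 runs of 31 bases, of 7939 in Prkaa2 and 4625 in Prkaa1, and the beta genes share 0, as do all pairs of gamma genes.

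Prkaa1 has a pair of coding transcripts, of 4655 and 4618 bases, that differ upstream of the activation loop and place the threonine at residue 183 or 174. RSEM gave Prkaa1-201 3.67 TPM in replicate 2 and 4.81 TPM in replicate 1. Kallisto gave it 1.76 TPM in replicate 2 and 3.17 TPM in replicate 1. RSEM's own bounds for Prkaa1-201 ran from 0.259 to 4.21 TPM in replicate 2 and from 0.26 to 4.58 TPM in replicate 1, so which transcript predominated was not resolved.

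Prkab2 was the leading beta subunit and the most abundant of the 8 messenger RNAs. It lies at chr3:97658193-97673812 on the plus strand (ENSMUSG00000038205.12). Prkab2 had 84.25 TPM in replicate 2, from 13551 counts, and 94.75 TPM in replicate 1, from 13433. Prkab1, at chr5:116013586-116024508 on the minus strand (ENSMUSG00000029513.14), had 4.63 TPM in replicate 2, from 251 counts, and 5.12 TPM in replicate 1, from 233. The Prkab2 level was 18.2 times that of Prkab1 in replicate 2 and 18.5 times in replicate 1, and 94.8% and 94.9% of the beta TPM of these libraries was Prkab2. By kallisto Prkab2 had 111 TPM in replicate 2 and 129 TPM in replicate 1, and Prkab1 6.86 and 6.64 TPM.

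Both beta proteins start with the glycine that receives myristate once the first methionine is removed. The first 30 coding bases are shown with that glycine codon, residue 2, in capitals, from chr3:97658614-97658643 on the plus strand and chr5:116024220-116024249 on the minus strand.
Prkab2-201: atgGGAaacactaccagcgagcgggtgtcc
Prkab1-201: atgGGCaacacgagcagcgagcgcgccgcg
They differ at 8 of 30 bases, and 71.3% of 268 aligned residues of the whole proteins were identical. The N-myristoyltransferase genes Nmt1 and Nmt2, whose enzymes attach this group, were both expressed. Nmt1 had 21.31 TPM in replicate 2 and 29.28 TPM in replicate 1, and Nmt2 had 5.14 TPM in replicate 2 and 4.84 TPM in replicate 1.

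Nearly all Prkab2 RNA was assigned to 1 coding transcript, Prkab2-201, of 5006 bases. RSEM gave Prkab2-201 84.25 TPM in replicate 2 and 93.95 TPM in replicate 1. Kallisto gave it 97.1 TPM in replicate 2 and 120 TPM in replicate 1, and added 10.3 and 9.29 TPM of Prkab2-204, a transcript labelled for nonsense-mediated decay (NMD) to which RSEM gave 0 in both libraries. For Prkab1 the leading coding transcript was not resolved, though RSEM's values changed order between the libraries. RSEM gave Prkab1-201 0.72 TPM in replicate 2 and 3.57 TPM in replicate 1. Prkab1-202 had 2.81 TPM in replicate 2 and was at 0 in replicate 1. In both libraries RSEM's bounds for these transcripts overlapped. For Prkab1-201 and Prkab1-202 they were 0.203 to 1.95 and 1.24 to 3.13 TPM in replicate 2. In replicate 1 they were 1.39 to 3.61 and 7.67e-05 to 1.93 TPM. Both transcripts encode 270 residues. Kallisto placed Prkab1-201 first in both libraries, at 4.51 TPM in replicate 2 and 3.72 TPM in replicate 1.

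The gamma class was shared between genes, and its order depended on how transcripts were counted. Prkag3 lies at chr1:74738922-74749221 on the minus strand (ENSMUSG00000006542.13) and had 32.84 TPM in replicate 2, from 2894 counts, and 34.41 TPM in replicate 1, from 2578. Prkag1, the broadly expressed gamma subunit, lies at chr15:98812797-98831521 on the minus strand (ENSMUSG00000067713.7). It had 21.73 TPM in replicate 2, from 1029 counts, and 22.98 TPM in replicate 1, from 925, and by kallisto 32.6 and 38.9 TPM. Prkag3 was 1.51 times as high as Prkag1 in replicate 2 and 1.5 times in replicate 1 by RSEM, and by kallisto 2.10 and 2.16 times.

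Prkag2, known in humans for variants that cause a heart muscle disease with glycogen storage, was the lowest of the 8 by RSEM TPM. Over all transcripts it was not the lowest by kallisto, nor by RSEM's posterior mean on average. Its gene spans chr5:24862744-25100642 on the minus strand (ENSMUSG00000028944.14). Prkag2 had 4.32 TPM in replicate 2, from 243 counts, and 3.56 TPM in replicate 1, from 160, and by kallisto 9.43 and 6.82 TPM. Of the gamma TPM by RSEM, 55.8% was Prkag3 in replicate 2 and 56.5% in replicate 1. Prkag1 held 36.9% and 37.7% of it in these libraries, and Prkag2 7.34% and 5.84%.

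Restricting the count to transcripts annotated as protein-coding put Prkag1 first. Prkag1 then held, in this count added once the values were known, 53.7% of the gamma TPM by RSEM and 55.9% by kallisto, averaged over the libraries, and Prkag3 40.8% and 37.8%. The order turned on a pair of transcripts with the same sequence. Prkag3-204 and Prkag3-206 are both 2832 bases long, have the same exons and the same coding bases, and encode the same 489 residues, yet the annotation labels Prkag3-206 protein-coding and Prkag3-204 NMD. RSEM gave each of them 15.84 TPM in replicate 2 and 15.70 TPM in replicate 1, and kallisto gave each 19.0 TPM in replicate 2 and 21.05 TPM in replicate 1. With Prkag3-204 counted beside its identical copy, Prkag3 held 57.3% of the gamma coding TPM by RSEM and 53.9% by kallisto, and Prkag1 38.7% and 41.4%.

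**Figure D2:**
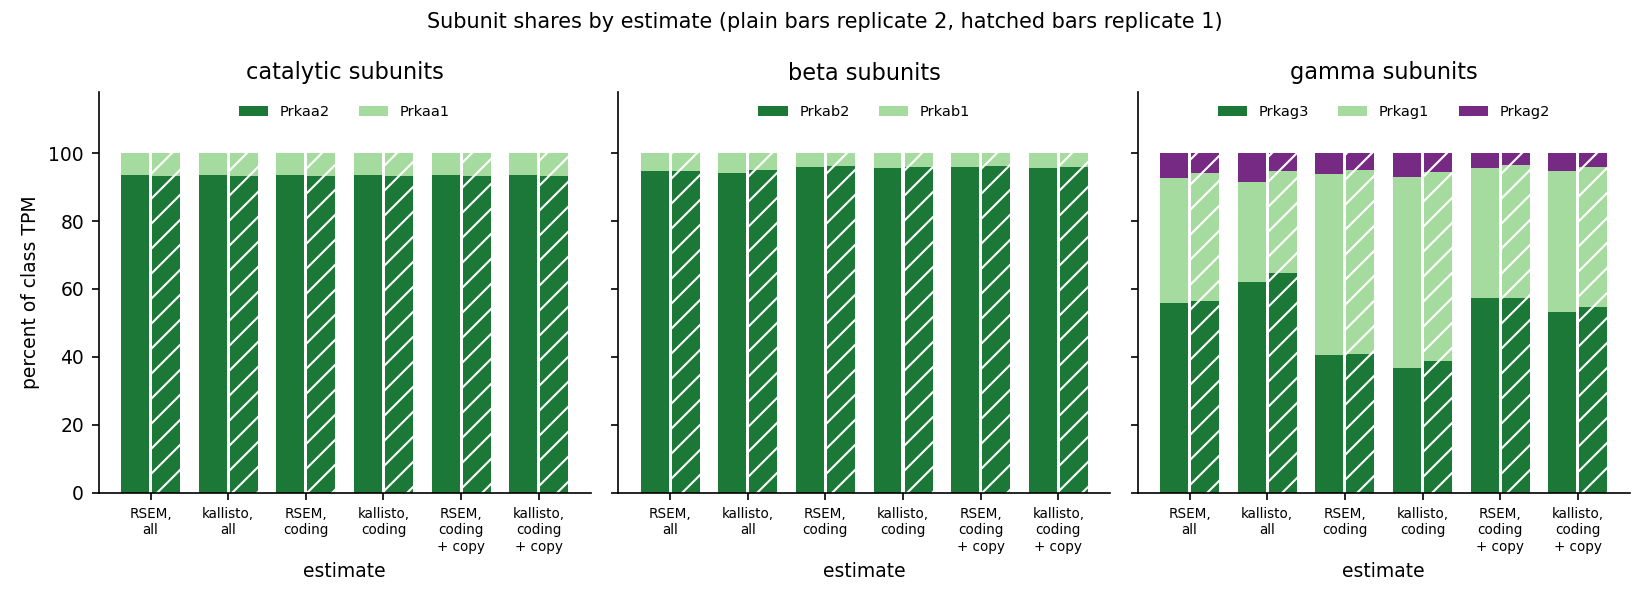
Percent of the summed TPM of each subunit class held by each gene, with plain bars for replicate 2 and hatched bars for replicate 1. The estimates are RSEM and kallisto over all transcripts, over protein-coding transcripts, and over those with the identical Prkag3 copy. Prkaa2 and Prkab2 keep more than 90% in every bar, while Prkag3 lies above Prkag1 in every pair of bars but those of protein-coding transcripts alone.

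A further Prkag3 transcript separated the programs. Prkag3-203 is a model of 517 bases, labelled NMD, that leaves the frame of the full protein after 33 coding bases by reading on into the sequence that Prkag3-206 splices out. Its first 60 coding bases are shown beside those of Prkag3-206, with the bases after the fork in capitals. Prkag3-203 runs unbroken over chr1:74748791-74748850, and Prkag3-206 joins chr1:74748818-74748850 to chr1:74748485-74748511, on the minus strand.
Prkag3-206: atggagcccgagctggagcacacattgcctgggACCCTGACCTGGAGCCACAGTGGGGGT
Prkag3-203: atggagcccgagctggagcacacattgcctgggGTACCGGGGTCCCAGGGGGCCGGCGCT
The Prkag3-203 reading frame is annotated with 49 residues. RSEM gave Prkag3-203 0.41 TPM in replicate 2 and 1.94 TPM in replicate 1. Kallisto gave it 29.3 TPM in replicate 2 and 39.4 TPM in replicate 1, above each of the full-length copies. By count it was far below them, at 167 and 181 of kallisto's 3157 and 2969 counts for the gene. Each full-length copy had 1459 and 1337. Scaling by the annotated lengths, 517 bases against 2832, would not by itself put Prkag3-203 above these copies. The source of its high kallisto TPM was not tested. Prkag3 as a whole had 68.4 TPM in replicate 2 and 84.0 TPM in replicate 1 by kallisto. These were 2.08 and 2.44 times the RSEM values, where the median protein-coding gene at 1 TPM or more stood at 1.30 and 1.38 times. The only other Prkag3 transcript at 1 TPM by RSEM was Prkag3-201, another model of the same 489 residues, with 0.38 TPM in replicate 2 and 1.02 TPM in replicate 1.

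Most Prkag1 RNA was in 1 transcript by both programs, though kallisto divided the rest otherwise than RSEM. Prkag1-201, which encodes 330 residues, had 18.92 TPM in replicate 2 and 18.60 TPM in replicate 1 by RSEM, and 23.7 and 22.8 TPM by kallisto in these libraries. Prkag1-206, a shorter coding model, had 2.81 TPM in replicate 2 and 3.53 TPM in replicate 1 by RSEM, against 2.06 TPM in replicate 2 and close to 0 in replicate 1 by kallisto. Kallisto gave Prkag1-202, at 0 by RSEM, 4.99 TPM in replicate 2 and 10.4 TPM in replicate 1, and the retained intron Prkag1-204 1.83 and 5.76 TPM. The longest form of Prkag2, Prkag2-201, encodes 566 residues and had 0.85 TPM in replicate 2 and 0.77 TPM in replicate 1 by RSEM. These were 19.8% and 21.6% of the Prkag2 TPM, from 90 and 72 of its 243 and 160 counts. Prkag2-203, a 326-residue form, had 1.46 TPM in replicate 2 and 0.78 TPM in replicate 1. Prkag2-207, a retained intron of 651 bases, had 1.5 TPM in replicate 2 and 1.24 TPM in replicate 1 by RSEM, from 27.2 and 19.8 counts. Kallisto gave Prkag2-207 5.15 TPM in replicate 2 and 3.13 TPM in replicate 1, or 54.6% and 46.0% of the gene's TPM. The share of Prkag2 TPM in coding transcripts was 57.9% in replicate 2 and 57.0% in replicate 1 by RSEM, and 41.1% and 47.7% by kallisto. In translated sequence Prkag3 was identical to Prkag1 at 61.5% of 325 aligned residues, and Prkag2 to Prkag1 at 74.2% of 330.

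Stk11 TPM was close to that of Prkaa2, the higher of the catalytic subunit genes, whose proteins LKB1 activates. The ratio of Stk11 to Prkaa2 TPM was 0.995 in replicate 2 and 0.979 in replicate 1. The Stk11 gene lies at chr10:80115803-80130682 on the plus strand (ENSMUSG00000003068.16). Stk11 had 63.70 TPM in replicate 2, from 3515 counts, and 65.86 TPM in replicate 1, from 3136. Kallisto gave 74.6 TPM in replicate 2 and 82.0 TPM in replicate 1.

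LKB1 is made as a long form, whose tail carries a phosphorylated serine and a farnesylated cysteine, and as a short form known in mice for its abundance in testis, which ends in another exon. The last 60 coding bases of both are shown, before the stop codon, with the codons of serine 431 and cysteine 433 of the 436-residue long form in capitals. They lie at chr10:80130036-80130095 for Stk11-201, the long form, and chr10:80128450-80128509 for Stk11-210, the 412-residue short form, both on the plus strand.
Stk11-201: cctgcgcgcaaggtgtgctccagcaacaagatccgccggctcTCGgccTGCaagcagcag
Stk11-210: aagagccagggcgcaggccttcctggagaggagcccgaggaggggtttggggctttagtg
RSEM gave the long form 21.65 TPM in replicate 2 and 21.22 TPM in replicate 1, and kallisto 37.0 TPM in replicate 2 and 38.3 TPM in replicate 1. The short form Stk11-210 had 16.12 TPM in replicate 2 and 19.57 TPM in replicate 1 by RSEM, and 14.5 TPM in replicate 2 and 11.1 TPM in replicate 1 by kallisto. Both programs thus placed Stk11-201 above Stk11-210 in both libraries, by margins that differed between programs. In replicate 1 RSEM's bounds overlapped, at 18.9 to 22.7 TPM for Stk11-201 and 15.5 to 22.3 TPM for Stk11-210. That order was therefore not resolved by RSEM in replicate 1.

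Another main transcript, Stk11-202, starts downstream of the first exons of Stk11-201 and has an annotated reading frame of 310 residues. On average RSEM placed it slightly above Stk11-201, at 21.9 against 21.4 TPM, but RSEM's bounds for the pair overlapped in both libraries. RSEM gave Stk11-202 23.34 TPM in replicate 2 and 20.51 TPM in replicate 1, with bounds of 20.0 to 25.1 TPM and 16.9 to 22.6 TPM in these libraries. Kallisto gave it 7.49 TPM in replicate 2 and 0.993 TPM in replicate 1, outside those bounds in each. For Stk11-203, labelled NMD, kallisto gave 10.7 TPM in replicate 2 and 20.4 TPM in replicate 1, and RSEM 0.90 and 0.92 TPM. Stk11-209, a partial coding model, had 0.49 TPM in replicate 2 and 1.42 TPM in replicate 1 by RSEM. The share of Stk11 TPM in coding transcripts was 96.7% in replicate 2 and 95.2% in replicate 1 by RSEM, and 79.0% and 61.5% by kallisto.

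**Figure D3:**
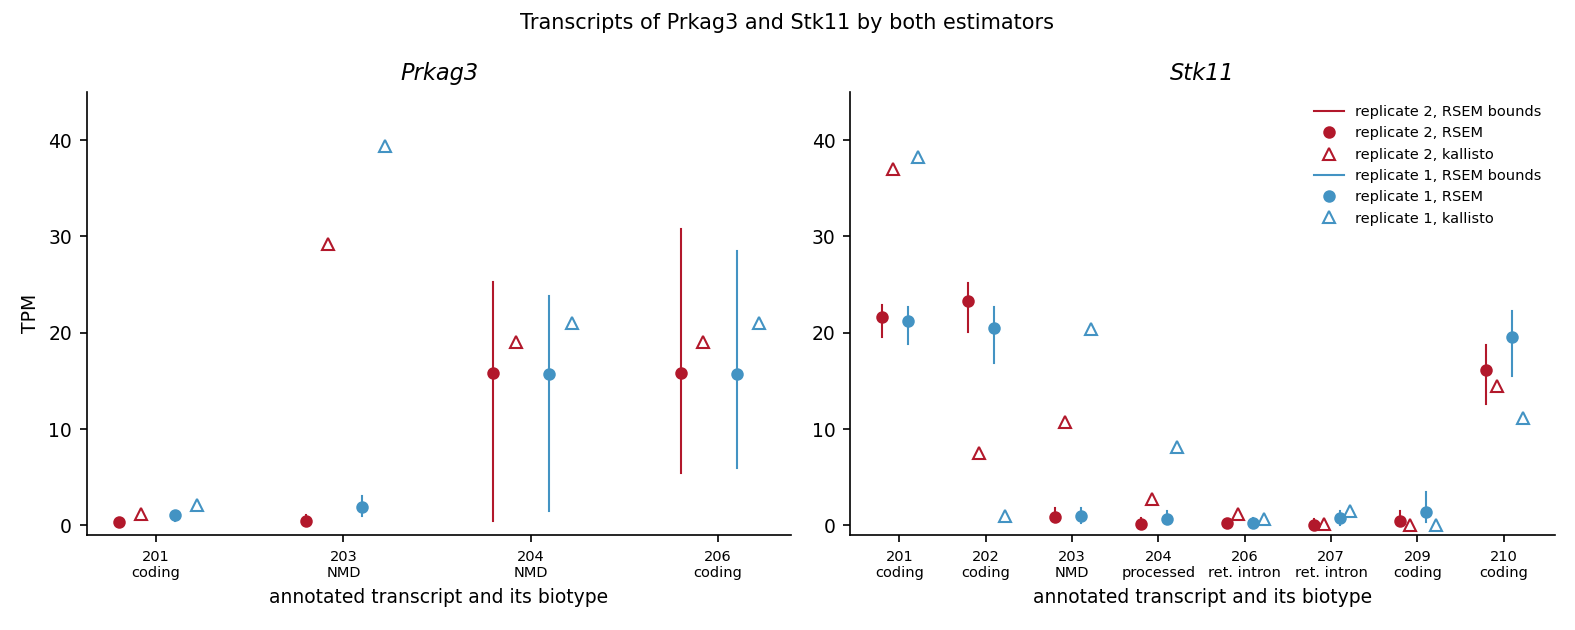
TPM of the transcripts of Prkag3 and Stk11 that reached 1 TPM in any library by either program, labelled by number and annotated biotype. Filled circles are RSEM with its deposited bounds as vertical lines, open triangles are kallisto, red is replicate 2 and blue replicate 1. In both libraries kallisto lies above the RSEM bounds for Prkag3-201, Prkag3-203, Stk11-201, Stk11-203 and Stk11-204 and below them for Stk11-202 and Stk11-209. In 1 library it lies above them for Stk11-206 and Stk11-207 and below them for Stk11-210, and the bounds of the identical Prkag3-204 and Prkag3-206 are wide.

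Across the 8 genes, 17 of the 50 transcripts reached 1 TPM in either library by RSEM, 33 did not, and 11 of those were at 0 in both. RSEM's bounds lie around its posterior mean, so that a deposited TPM can sit outside them, as for Prkaa2-201 at 64.03 TPM in replicate 2 with bounds of 61.8 to 63.7 TPM. Whether reads were counted by strand is not given in the sources used here. Of 8 genes annotated across a member, Cbarp, which overlaps Stk11 by 232 bases on the other strand, was the highest, at 0.71 TPM in replicate 2 and 0.94 TPM in replicate 1. The other 7 were at 0 TPM in replicate 2 and at most 0.06 TPM in replicate 1.

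Summed over their genes, the classes were within a factor of 2 of each other by both programs over all transcripts. Over protein-coding transcripts alone the beta class was 2.15 times the gamma class in replicate 2 and 2.38 times in replicate 1 by RSEM, and 1.85 and 2.09 times by kallisto. By RSEM the catalytic class summed to 68.5 TPM in replicate 2 and 72.1 TPM in replicate 1, the beta class to 88.9 and 99.9 TPM, and the gamma class to 58.9 and 61.0 TPM. The gamma class was thus below the catalytic class by RSEM, at 0.860 times its TPM in replicate 2 and 0.845 times in replicate 1. By kallisto it was above it, at 1.35 and 1.43 times. The beta class was the highest by both programs in both libraries.

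The members were compared between the libraries, with all genes as background. The log2 ratio of replicate 2 over replicate 1 was computed from counts scaled by TMM, a method that sets the typical gene to 0, over 12969 genes whose counts in both libraries summed to 50 or more. No member was 2-fold apart, 0 of 8, against 4.64% of all genes tested, or 602 of 12969. At that rate few or none would be found among 8 genes, so this count does not set the members apart. The ratio was above 0 for 7 of 8 members and for 49.8% of all genes tested, with a median of 0.10 over the members and -0.00094 over all genes. Exact binomial intervals, which cover counting error only, included 0 for 4 members, Prkaa1, Prkab1, Prkab2 and Prkag1.

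Prkag2 was furthest apart. It was 1.48-fold higher in replicate 2, with a counting interval of 1.21 to 1.83 and a log2 ratio of 0.57, and 85.6% of all genes tested lay within that distance of 0. The log2 ratio was 0.14 for Prkag3, 0.13 for Stk11 and 0.12 for Prkag1, and 0.08 for Prkaa2, with an interval of 0.05 to 0.11. For Prkab2 it was -0.02, with an interval of -0.05 to 0.02. TPM, which is a share of each library's own total, was lower in replicate 2 for 7 of the 8, all but Prkag2, so directions this small depended on the scale. Scaled by ERCC totals, which moved the median of all genes to -0.22, only Prkag2 remained above 0, at 0.35, and the other 7 were below 0. Slow fibre genes were higher in the same library, replicate 2, and their part in its ratio was not tested.

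**Figure D4:**
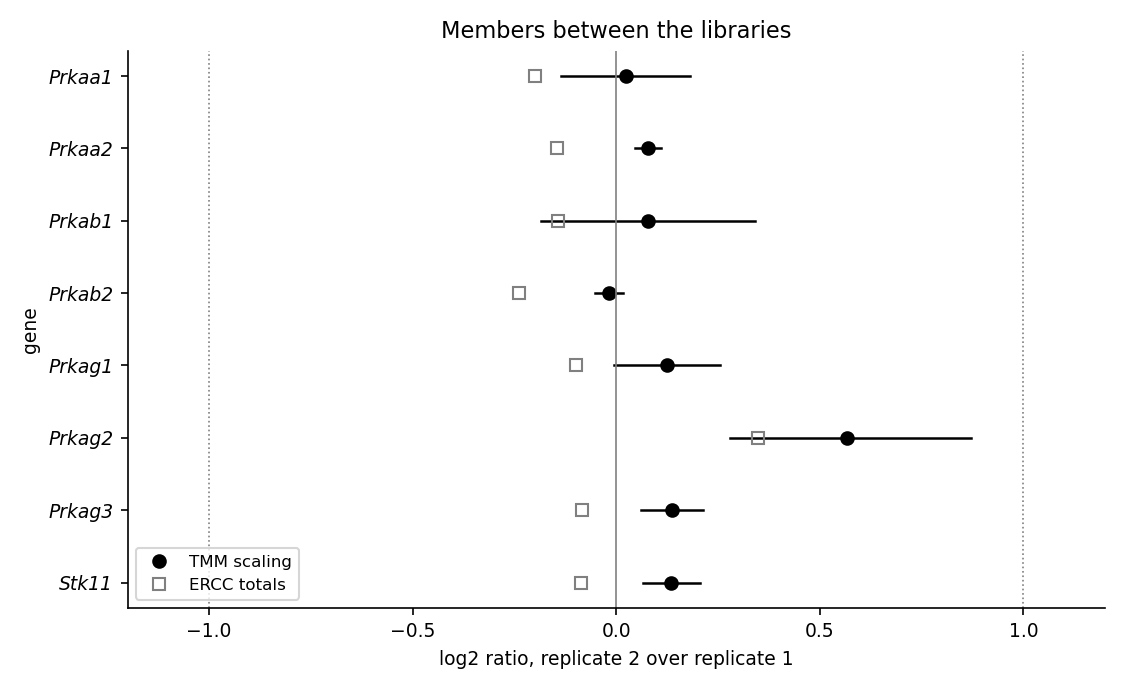
Log2 ratio of replicate 2 over replicate 1 for each gene, as filled circles with exact binomial intervals under TMM scaling and as open squares under ERCC totals. Dotted lines mark 2-fold. All symbols lie within these lines, and Prkag2 is the only gene above 0 under both scalings, at 0.57 and 0.35.

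Around the 8 genes, 63 other genes of the pathway were followed in 10 lists, from LKB1's partners to AMPK's substrates. Of these, 57 reached 1 TPM in both libraries and 60 were tested, with 34 ratios above 0 and 26 below. At least 2-fold apart were 2, or 3.33%, against 4.64% of all genes: Foxo1 was higher in replicate 2 and Pfkfb3 lower. The median log2 ratio of the 60 was 0.04. Under ERCC totals the median of all genes fell by 0.22 on the log2 scale, enough to put ratios that are small and above 0 here, those of all 4 LKB1 partners included, below 0.

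LKB1 is active only when bound to a STRAD pseudokinase and the scaffold MO25. All 4 partner genes were expressed, and their log2 ratios lay from 0.01 to 0.16. Cab39, which encodes MO25 alpha, had 73.85 TPM in replicate 2 and 82.79 TPM in replicate 1, slightly above Stk11 in both. Stradb had 51.10 TPM in replicate 2 and 51.93 TPM in replicate 1, against 6.16 and 5.91 TPM for Strada, and Cab39l had 9.85 TPM in replicate 2 and 11.72 TPM in replicate 1. In these libraries the beta form of STRAD therefore had the higher RNA level.

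The other kinases known to act on the same threonine were lower than Stk11. Map3k7, which encodes TAK1, had 17.57 TPM in replicate 2 and 18.91 TPM in replicate 1. Camkk2, which encodes a calcium-dependent AMPK kinase, had 1.30 TPM in replicate 2 and 1.71 TPM in replicate 1, and Camkk1 was below 1 TPM in both. Of the phosphatase genes, Ppm1a was the highest, at 132.06 TPM in replicate 2 and 126.78 TPM in replicate 1, with Ppm1f at 4.08 and 5 TPM and Ppm1e at 0.20 and 0.14 TPM in these libraries. None of the 5 genes tested from these lists was 2-fold apart.

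LKB1 also activates 12 kinases related to AMPK, of which 8 reached 1 TPM in both libraries and 10 were tested, 7 above 0 and 3 below, with a median of 0.06 and none 2-fold apart. Mark3 had 23.07 TPM in replicate 2 and 24.31 TPM in replicate 1, Snrk 25.53 and 19.09 TPM, and Sik3 16.38 and 18.04 TPM in these libraries. Nuak1, chosen after its values were seen as the furthest apart, had 12.45 TPM in replicate 2 and 6.98 TPM in replicate 1, a log2 ratio of 0.87. Of the folliculin complex, which restrains AMPK signalling, Flcn had 17.90 TPM in replicate 2 and 21.83 TPM in replicate 1, Fnip1 11.11 and 12.98 TPM, and Fnip2 1.49 and 1.56 TPM. Among 8 genes of lysosomal recruitment and myristoylation, 5 were above 0 and 3 below. Lamtor1, a lysosomal anchor, was highest at 47.39 TPM in replicate 2 and 41.42 TPM in replicate 1, followed by Lamtor2 at 41.99 and 41.06 TPM.

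Genes of AMPK substrates in glucose and glycogen metabolism had the lowest median of the substrate lists, -0.38 over 6 genes, of which 4 were below 0. Pfkfb3, which makes the activator of phosphofructokinase, had 61.34 TPM in replicate 2 and 174.99 TPM in replicate 1, a log2 ratio of -1.26. Txnip, an inhibitor of glucose uptake that AMPK targets for degradation, had 150.72 TPM in replicate 2 and 236.95 TPM in replicate 1, with a log2 ratio of -0.51. Gys1, the muscle glycogen synthase, went the other way, at 140.66 TPM in replicate 2 and 119.31 TPM in replicate 1, with 0.40.

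The fat and sterol list had 2 genes above 0 and 5 below, with a median of -0.02. Acacb, the acetyl-CoA carboxylase that controls fat oxidation in muscle, was nearly level, at 67.28 TPM in replicate 2 and 74.29 TPM in replicate 1, with a log2 ratio of -0.01. It was far above Acaca, the form of fat synthesis, at 4.99 TPM in replicate 2 and 5.31 TPM in replicate 1. Pnpla2, the first lipase of fat breakdown, had 135.26 TPM in replicate 2 and 160.09 TPM in replicate 1, and Srebf1, a regulator of fat synthesis, 14.19 and 18.20 TPM.

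Of 8 genes in growth, autophagy and mitochondria, 5 were above 0 and 3 below, none beyond 0.32, with a median of 0.08. Bnip3, a receptor for the removal of mitochondria, had 93.51 TPM in replicate 2 and 118.39 TPM in replicate 1, and the mitochondrial fission factor Mff had 60.16 and 60.48 TPM. Mtfr1l, a regulator of mitochondrial shape, had 60.91 TPM in replicate 2 and 53.50 TPM in replicate 1. Of 9 regulators of transcription, 4 were above 0 and 5 below, with a median of -0.06. Foxo1, a factor of the fasting response, had 15.79 TPM in replicate 2 and 6.68 TPM in replicate 1, a 2.62-fold difference with a counting interval of 2.48 to 2.77. Foxo4, of the same family, had 59.08 TPM in replicate 2 and 58.78 TPM in replicate 1, and the class II histone deacetylases Hdac4 and Hdac5 had 31.75 and 32.22 TPM in replicate 2 and 49.89 and 35.08 TPM in replicate 1.

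**Figure D5:**
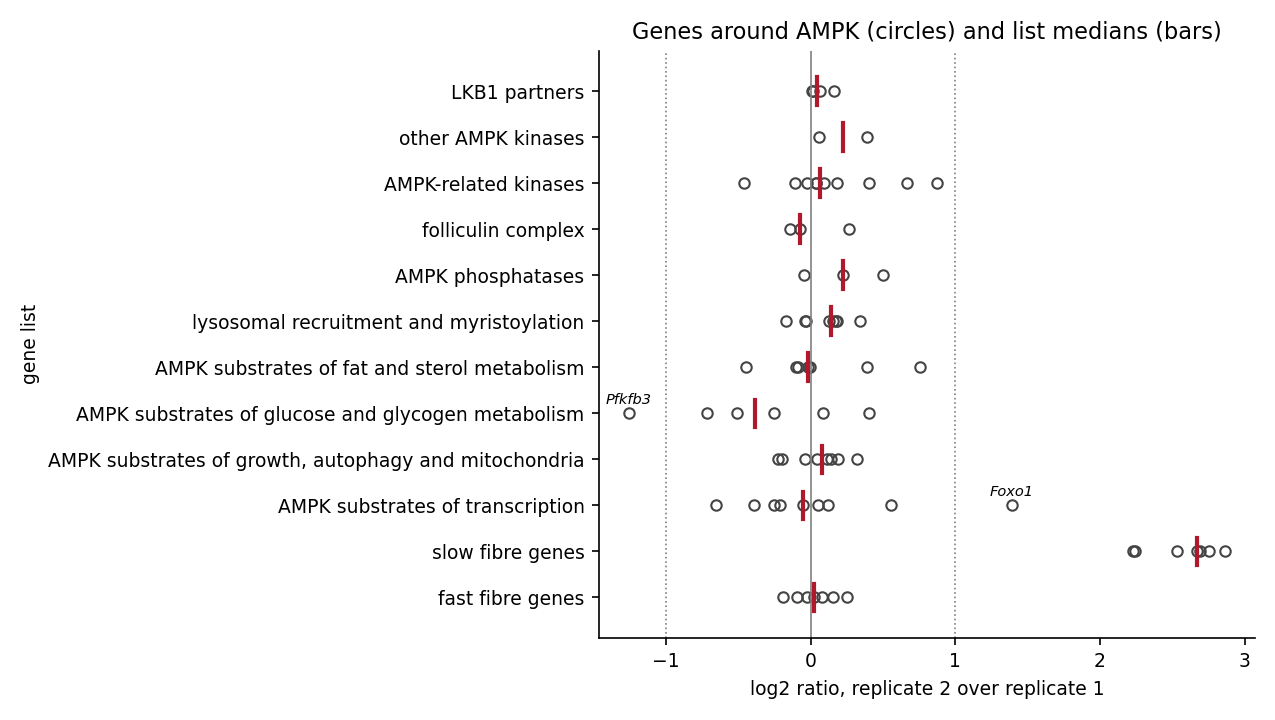
Log2 ratio of replicate 2 over replicate 1 for each tested gene of the pathway and fibre lists, as open circles, with each list's median as a red bar. Dotted lines mark 2-fold. Outside the slow fibre list, whose 7 genes all lie beyond a log2 ratio of 2, only Foxo1 and Pfkfb3 pass these lines.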

How the data were processed

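Reads were quantified on mm10 with GENCODE M21, per the notes that the authors deposited. No aligner and no quantifier version is given in the sources used here. Expected counts and TPM of genes and transcripts were deposited with the column names of RSEM, per the file headers, from alignments to the transcriptome. Kallisto's estimated counts and TPM per transcript were deposited too, per the file headers, made from the FASTQ reads, and were summed per gene here. Posterior mean TPM and RSEM's interval bounds, deposited beside them, are signal values on the TPM scale. RSEM's TPM runs over all rows, spike-ins and 26249 phiX and tRNA rows included.

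Counts of genes, without those rows, were rounded and scaled by TMM in edgeR 4.0.16 (R 4.3.3), with a prior count of 2 and a summed count of at least 50. The log2 ratio is replicate 2 over replicate 1, with an exact conditional binomial interval at 95% that covers counting error only. Size factors of DESeq2 1.42.0 were an alternative. Of the steps, the log2 ratio was tested on simulated counts.

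Sequences, exons and coding bases came from GENCODE M21 (GRCm38), read in Python 3.11.15, and proteins were translated and aligned with Biopython 1.88 (BLOSUM62). The members, lists and settings were chosen with earlier results of these data known. Named were all members, each of their transcripts at 1 TPM or more by RSEM in either library, the 3 genes of highest mean TPM of each pathway list and each list gene at least 2-fold apart. Other genes and transcripts, such as Acaca, Nmt2, Strada, Nuak1, single markers of other cells and transcripts below 1 TPM by RSEM, were named after their values were seen. Scaling, count filter, prior count and expression estimate were varied, and each library was left out.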

Additional observations from a re-analysis of the deposited data

How the results depend on the processing

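No paired analysis was possible because there was 1 group. With 2 libraries, leaving out either only returns the value of the other, so it was no separate check of the shares. These values were 93.3 to 93.5% of the catalytic TPM for Prkaa2 and 94.8 to 94.9% of the beta TPM for Prkab2. Of the gamma TPM they were 36.9 to 37.7% for Prkag1 and 55.8 to 56.5% for Prkag3. The Prkaa2 share was 93.4% by kallisto and 93.3% by posterior mean TPM, within its spread. The other estimates could not change it: both catalytic genes have coding transcripts only, and scaling to coding genes leaves shares as they are. The TPM levels themselves did depend on the estimate, beyond the SD of the libraries. Scaled to coding genes, Prkaa2 averaged 123 TPM and Prkab2 167 TPM, and the levels of all 8 members were higher, as they were by kallisto. Prkab2 held 94.6% by kallisto, 94.0% by posterior mean TPM, and, over protein-coding transcripts, 96.2% by RSEM and 95.8% by kallisto. Prkag1 held 29.8% by kallisto, 53.7% over coding transcripts by RSEM and 55.9% by kallisto, and 38.7% and 41.4% with the identical Prkag3 copy added. Prkag3 held 63.3% by kallisto, 54.8% by posterior mean TPM, 40.8% and 37.8% over coding transcripts, and 57.3% and 53.9% with the copy. The estimates over coding transcripts, with and without the copy, were chosen after seeing the data. The 602 genes at least 2-fold apart became 1340 with a summed count of at least 10, 2712 with no filter and 194 at 500, where fewer genes were tested. Of those calls 58.1% were higher in replicate 2, against 35.7% under ERCC totals, 40.2% with no filter and 75.8% at 500. The members 2-fold apart stayed at 0 under all these settings, although a summed count of 500 left only 6 members tested. With 2 libraries and 160 to 251 counts for Prkab1 and Prkag2, small differences in these genes were not detectable at this depth.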
